A study of Mus musculus with 6 samples.

Results

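Cells that carried transcripts of both Ly6c2 and the complement C1q genes made up 2269 of the 20407 cells assigned to a mouse in a CITE-seq experiment on tumour-infiltrating leukocytes, or 11.1%. A cell was taken as co-expressing when it had at least 2 UMIs (counted molecules) of Ly6c2 and at least 5 UMIs of C1qa, C1qb and C1qc together. Cells with 3 or more UMIs of Inhba and Cxcl3 together, with 2% or more of their UMIs from S100a8 and S100a9, with any UMI of Cd3e, Cd3d or Ncr1, or with 10 or more UMIs of the 3 collagen genes Col1a1, Col1a2 and Col3a1 were left out, so that granulocytes, T cells, NK cells and fibroblasts would not enter. The cells were therefore chosen on measured transcripts, and their levels of the genes named in the rule are a description. The same rule with fewer than 5 C1q UMIs gave 2090 Ly6c2-only cells, and with fewer than 2 Ly6c2 UMIs it gave 3963 C1q-only cells. These served as the neighbours to which the co-expressing cells were compared.

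The cells came from subcutaneous YUMM1.7 melanomas of 16 female mice, 4 in each of 4 conditions. Mice of the genotype GRf/f-LysMCre, which carry floxed alleles of Nr3c1, the glucocorticoid receptor gene, and Cre driven by the Lyz2 promoter, were given anti-PD-1 or an isotype antibody as its control. GRf/f mice, which carry the same floxed alleles without Cre, were given the same antibodies. The conditions are called LysM-Cre anti-PD-1, floxed anti-PD-1, LysM-Cre isotype and floxed isotype below. Mice were 8 weeks old, received 250000 tumour cells, were dosed with 12.5 mg/kg of antibody 2 times a week for 3 weeks from about day 7, and had tumours taken on day 28, from which CD45-positive cells were sorted. The Lyz2 promoter is active across monocytes, macrophages and granulocytes, so the deletion was not particular to the co-expressing cells. The labels give the mice no numbers, so those used here (1 and 2 in pool E5, 3 and 4 in pool E6) are names only.

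Ly6C-high monocytes leave the blood, enter inflamed or tumour tissue and can become macrophages there. Along that course they lose Ly6c2, which encodes the surface protein Ly6C, and gain macrophage genes, among them the C1q genes, which encode the chains of the molecule that starts the classical complement pathway. Cells that hold transcripts of both are often described as an intermediate of that course. In mm10, Ly6c2 lies on chr15:75108161-75112066, and the C1q genes lie next to each other at chr4:136895916-136898844 (C1qa), chr4:136880126-136886200 (C1qb) and chr4:136889801-136892936 (C1qc).

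Each mouse was marked by a hashtag antibody, and 88 surface antibodies were read beside the genes in the same cells. Antibodies were identified by the 15-base tags they carry. The tags of the surface antibodies on which the results below turn are shown here, so that each can be traced to its reagent.
Sca1: ttcctttcctacgca
CD127: gtgtgaggcactctt
CD115: ttccgttgttgtgag
CD40: atttgtatgctggag
CD274: tcgattccaccaact
CD80: gacccggtgtcattt
Ly6C: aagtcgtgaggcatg
The submitters' table gives the hashtags numbered 8 and 9 the same letters, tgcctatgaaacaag. The matrices hold separate counts for them, and both mark floxed isotype mice, so that the condition of a cell does not depend on which is right.

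The 2 pools held 15301 and 16614 barcodes with 176338827 and 221763950 gene UMIs, and the median barcode had 8475 and 8905. After filters, 9889 and 10518 cells had 1 dominant hashtag. No barcode of a co-expressing cell was shared by the pools. The cells were spread over both pools, 1106 in E5 and 1163 in E6, and over all 16 mice. Their number per mouse was 43, 77, 106 and 121 in LysM-Cre mice on anti-PD-1, 94, 6, 58 and 41 in floxed anti-PD-1 mice, 70, 450, 51 and 65 in LysM-Cre isotype mice, and 223, 143, 579 and 142 in floxed isotype mice. The floxed anti-PD-1 mouse with 6 cells was left out of every gene and antibody fit, which therefore rest on 15 mice.

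The median co-expressing cell had 12152 gene UMIs, against 10225 in Ly6c2-only cells and 11969 in C1q-only cells. It had 12 UMIs of Ly6c2 and 54 of C1q. The middle of the distribution was broad, with 5 to 26 UMIs of Ly6c2 and 14 to 129 of C1q between the lower and upper quartiles. At the limit of the rule, 284 cells had exactly 2 UMIs of Ly6c2 and 703 cells had 1 and were left out. Likewise 210 cells had exactly 5 UMIs of C1q and 286 cells had 4 and were left out.

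By C1q, 428 cells had 5 to 8 UMIs, 197 had 9 to 16 and 240 had 17 to 32, whereas 385 had 33 to 64 and 449 had 65 to 128. The numbers thinned out between a group near the limit and a group with many C1q UMIs.

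**Figure D1:**
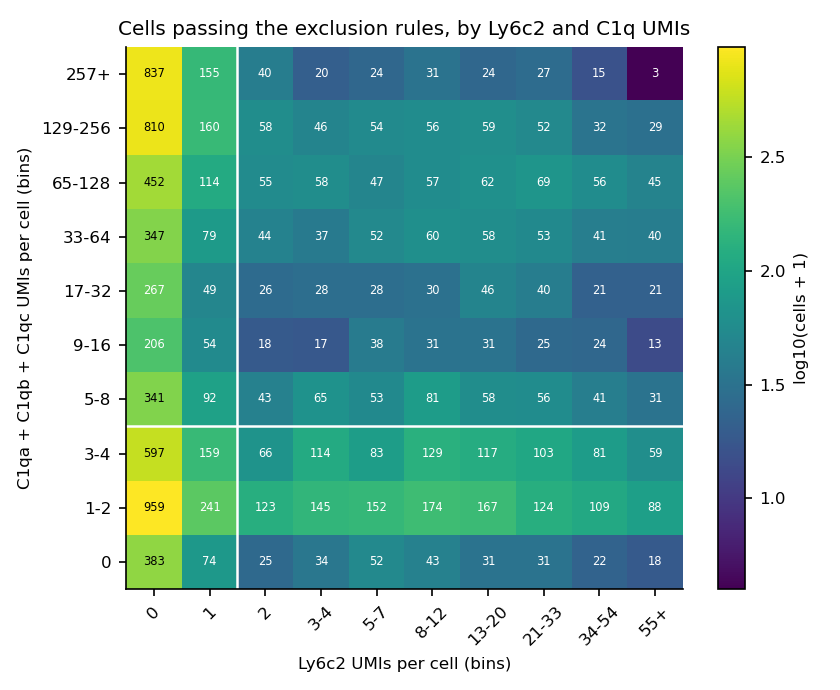
Number of cells that passed the exclusions, in bins of Ly6c2 UMIs (x axis) and of C1qa, C1qb and C1qc UMIs together (y axis), with the shade on a log10 scale and white lines at the limits of the rule. Co-expressing cells fill the upper right field, and their numbers dip at 9 to 16 C1q UMIs, between the cells next to the Ly6c2-only field and those with a high C1q count.

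Free RNA in droplets and pairs of cells in 1 droplet can also give both transcripts. Reference cells and barcodes with 2 hashtags show how often the limits were met elsewhere. The reference cells do not separate free RNA from pairs, and neither source was counted within the co-expressing cells. T cells, a type that should lack C1q, had 5 or more C1q UMIs in 23.6% of 4626 cells at a median of 6305 gene UMIs. Collagen-expressing cells, which should lack both, had 5 or more C1q UMIs in 32.7% of 939 cells and 2 or more Ly6c2 UMIs in 8.73%, at a median of 27014 gene UMIs. Both limits were met by 14.1% of T cells, some of which transcribe Ly6c2 themselves, and by 5.32% of collagen-expressing cells. With every cell thinned to 3000 UMIs, 14.96% of T cells and 13.9% of collagen-expressing cells reached 5 C1q UMIs, and 5.31% and 1.18% of them met both limits. The median was 2 C1q UMIs in T cells and 3 in collagen-expressing cells before thinning. The co-expressing cells were chosen on these counts, so their own shares are a description: of the 2232 deep enough to be thinned, 48.3% still met both limits, and 37 were too shallow. Single cells near the limits cannot be told from background.

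Among the 5382 barcodes with 2 hashtags, which hold cells of different mice, 1002 met the same gene rule. That is 18.6% of them (95% exact binomial interval 17.6 to 19.7), against 11.1% of barcodes with 1 hashtag (10.7 to 11.6). Of barcodes that fell in any of the 3 populations, the co-expressing share was 52.3% with 2 hashtags and 27.3% with 1. Barcodes with 2 hashtags that met the rule had a median of 24420 gene UMIs, against 12152 for the cells described here. Pairs of cells from the same mouse carry 1 hashtag and remain among the 2269; their number was not measured. The Scrublet doublet score was above the median score of the 2-hashtag barcodes of the same pool in 5.16% of co-expressing cells, in 1.67% of Ly6c2-only cells and in 3.48% of C1q-only cells.

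The marker genes set for these cells were present at levels between those of the neighbouring populations. Levels are given as CPM, the UMIs of a gene per 1000000 gene UMIs summed over a mouse's cells, as mean ± SD over 15 mice, and are a description, since the cells were chosen on genes. Chil3, which encodes a chitinase-like protein of monocytes, stood at 601 ± 487 CPM in co-expressing cells, against 1395 ± 849 in Ly6c2-only cells and 112 ± 179 in C1q-only cells, and the order was the same in all 15 mice. Fn1, fibronectin, had 357 CPM in co-expressing cells, 520 in Ly6c2-only cells and 304 in C1q-only cells. Arg1, which breaks down arginine, did not mark the population. It had 122 ± 117 CPM in co-expressing cells, 76.4 ± 84.4 in Ly6c2-only cells and 164 ± 112 in C1q-only cells, and over mice it ran from 16.8 to 429 CPM in the co-expressing cells.

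Genes of monocytes were lower than in Ly6c2-only cells and higher than in C1q-only cells. Of 16 monocyte genes with at least 10 CPM, 13 held this order in at least 12 of 15 mice, as did 6.11% of all 8099 genes at that level. Plac8 had a mean of 2582 ± 772 CPM in co-expressing cells, against 4726 ± 836 in Ly6c2-only cells and 290 ± 207 in C1q-only cells. Hp, which encodes the haemoglobin-binding haptoglobin, and Vcan, a matrix proteoglycan, followed the same order in 15 of 15 mice. Ccr2, the chemokine receptor that brings monocytes out of the marrow, was close to the Ly6c2-only level, at 850 CPM in co-expressing cells against 942 in Ly6c2-only cells and 398 in C1q-only cells.

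Genes of macrophages showed the opposite order, above Ly6c2-only and below C1q-only cells, in 19 of 24 listed genes, against 9.49% of all genes. Apoe, an apolipoprotein of lipid transport, ran from 4372 to 13569 CPM over the 15 mice in co-expressing cells with a median of 7343. In Ly6c2-only cells it ran from 1194 to 5006 CPM with a median of 3301, and in C1q-only cells from 8595 to 21736 with a median of 14169. The ranges of the populations overlapped at their ends. Mrc1, the mannose receptor CD206, had 187 ± 124 CPM in co-expressing cells, 40.2 ± 27.9 in Ly6c2-only cells and 596 ± 161 in C1q-only cells, and Pf4, a platelet-factor chemokine, had 206 ± 174, 26.1 ± 12.8 and 895 ± 305 CPM in the same populations. Cx3cr1, the fractalkine receptor, averaged 242 CPM in co-expressing cells, 135 in Ly6c2-only cells and 531 in C1q-only cells.

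Not every gene lay between the neighbours. Of 3223 genes with at least 50 CPM in one population, 94 (2.92%) were above both neighbours in at least 12 of 15 mice, 67 (2.08%) were below both, and 371 and 361 lay between, higher in Ly6c2-only and in C1q-only cells. Spon1, which encodes the secreted matrix protein spondin, had the widest margin among the genes above both. Its level ran from 23.5 to 101 CPM over mice in co-expressing cells (median 83.8), from 15.2 to 75.7 in Ly6c2-only cells (median 40.2) and from 3.22 to 66.8 in C1q-only cells (median 27.1). Co-expressing cells were higher than both neighbours in 15 of 15 mice, although the ranges over mice overlapped.

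Chemokines and MHC class II genes were among the genes above both neighbours. Cxcl9, a chemokine that draws activated T cells, had 1156 ± 659 CPM in co-expressing cells, 631 ± 440 in Ly6c2-only cells and 567 ± 301 in C1q-only cells. Ccl5, another T cell chemokine, had 894 ± 472 CPM in co-expressing cells, 563 ± 340 in Ly6c2-only cells and 339 ± 208 in C1q-only cells. Ciita, the regulator of MHC class II transcription, had 141 ± 40.4 CPM in co-expressing cells, 92.9 ± 26.8 in Ly6c2-only cells and 91.7 ± 34.2 in C1q-only cells. Of 9 MHC class II genes, 5 were above both neighbours (1.59% of all genes) and 8 were above Ly6c2-only cells (18.0% of all genes), and with a stricter limit of 3 Ly6c2 and 10 C1q UMIs 8 were above both. H2-Aa, a chain of the class II molecule, had 5186 ± 1231 CPM in co-expressing cells, 2301 ± 765 in Ly6c2-only cells and 3905 ± 1165 in C1q-only cells. Of 26 interferon response genes, 26 were above C1q-only cells, against 18.6% of all genes, and 3 were above both neighbours.

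**Figure D2:**
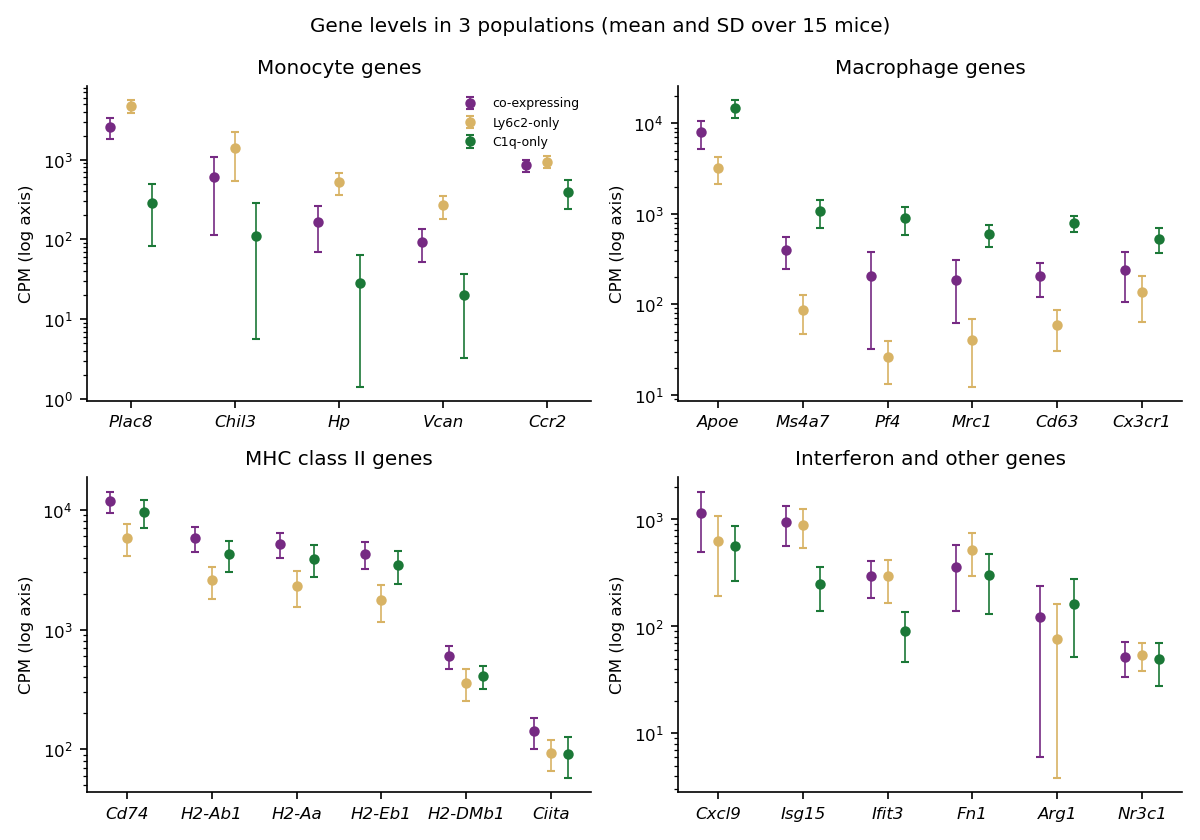
Mean level over 15 mice (points, CPM on a log axis) with SD (bars, shortened at the lower end where the SD would reach 0) of 23 genes in co-expressing, Ly6c2-only and C1q-only cells. Monocyte genes of the co-expressing cells lie below Ly6c2-only and above C1q-only cells and macrophage genes the other way round, whereas H2-Aa and Cxcl9 are highest in co-expressing cells.

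All 18 listed cell cycle genes were below C1q-only cells, against 28.1% of all genes, and 8 were above Ly6c2-only cells. Mki67, a marker of dividing cells, had 32.2 CPM in co-expressing cells, 14.4 in Ly6c2-only cells and 127 in C1q-only cells. Nr3c1 itself was at about the same level in the 3 populations, with 52.1 CPM in co-expressing cells, 54.2 in Ly6c2-only cells and 49.2 in C1q-only cells. Markers of other cell types were then summed over each list, without the genes that the rule used. In co-expressing cells T cell genes reached 15.8 ± 8.38 CPM, NK cell genes 15.8 ± 27.6, B cell genes 16.7 ± 6.97, fibroblast genes, of which 1 was left, 2.89 ± 2.12 and melanoma genes 0.318 ± 0.408 CPM. Dendritic cell genes were at 216 ± 69.1 CPM in co-expressing cells, 286 ± 189 in Ly6c2-only cells and 234 ± 56.8 in C1q-only cells, and neutrophil genes at 83.1 ± 26.9, 91.6 ± 24.5 and 54.5 ± 24.2 CPM in the same populations. Haemoglobin and other red cell genes were the highest of these lists, at 2431 ± 3564 CPM in co-expressing cells, 353 ± 1073 in Ly6c2-only cells and 3768 ± 3102 in C1q-only cells, with a range of 14.7 to 9993 CPM over mice; their part in the differences above was not tested.

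Within the population, cells were placed in 4 bins by the share of C1q in their gene UMIs, with 567 or 568 cells each. Median C1q was 6, 36, 85 and 186 UMIs from the lowest to the highest bin. Other genes, compared in 14 mice and as a description, moved along with it. Chil3 had 1544, 1020, 539 and 331 CPM from the lowest to the highest bin and Plac8 had 4077, 3427, 2024 and 1284, and both were lower in the highest than in the lowest bin in 14 of 14 mice. Mrc1 had 73.3, 142, 218 and 305 CPM, Apoe had 4260, 5664, 8232 and 12335, and H2-Aa had 2794, 4191, 5887 and 6545, each higher in the highest bin in 14 of 14 mice. Fn1 had 518, 423, 272 and 191 CPM. Isg15, an interferon response gene, had 1020, 1154, 947 and 902 CPM and showed no such order, nor did Arg1, which had 91.7, 128, 160 and 117. The lowest bin was the nearest to the Ly6c2-only cells, which had 1395 CPM of Chil3, 3204 of Apoe and 40.2 of Mrc1. The doublet score passed its limit in 2.46%, 5.29%, 5.82% and 7.05% of cells from the lowest to the highest bin, and its part in the order was not tested.

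The surface antibodies were not used by the rule, apart from the Ly6C antibody, whose target Ly6c2 encodes. Populations were compared over 15 mice with edgeR's quasi-likelihood test with the mouse as a block. The Benjamini-Hochberg adjustment covered all antibodies in the fit, the Ly6C antibody included, and the counts below are of the 86 others. Against Ly6c2-only cells 44 of 86 antibodies (51.2%) were called at an adjusted p of 0.05, 27 higher and 17 lower in co-expressing cells. Against C1q-only cells 40 of 86 (46.5%) were called, 21 higher and 19 lower. This second split depended on scaling. The median antibody moved by -0.07 (log2) against C1q-only cells with TMM scaling (trimmed mean of M-values) and by -0.45 when counts were scaled by their total, where 60 were called, 8 higher and 52 lower. Values below have TMM scaling unless stated.

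Sca1, the surface protein encoded by the interferon-inducible gene Ly6a, was higher on co-expressing cells than on either neighbour. Its level in antibody CPM, the counts of an antibody per 1000000 antibody counts of a mouse's cells, ran from 74761 to 239240 over mice in co-expressing cells (median 179646), from 56107 to 163252 in Ly6c2-only cells (median 110438) and from 44553 to 143572 in C1q-only cells (median 97008). Ranges overlapped, and co-expressing cells were the higher in 14 of 15 mice against each neighbour. The log2 difference was 0.58 (SE 0.080, adjusted p = 5.98e-06 by edgeR) against Ly6c2-only cells and 1.18 (SE 0.146, adjusted p = 3.23e-06) against C1q-only cells, and 0.81 against C1q-only cells with total scaling. Ly6a transcripts had 1449 ± 423 CPM in co-expressing cells, 942 ± 325 in Ly6c2-only cells and 446 ± 216 in C1q-only cells.

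CD127, the interleukin-7 receptor alpha chain, was also higher than on both neighbours. Its antibody ran from 231 to 497 CPM in co-expressing cells (median 357), from 165 to 385 in Ly6c2-only cells (median 244) and from 195 to 339 in C1q-only cells (median 266). The log2 difference was 0.43 (SE 0.109, adjusted p = 0.00314 by edgeR) against Ly6c2-only cells and 0.78 (SE 0.129, adjusted p = 8.38e-05) against C1q-only cells. The first of these missed the threshold when any 1 of 5 mice was left out, with adjusted p up to 0.0658. The transcript did not follow, since Il7r had 32.6 ± 26.9 CPM in co-expressing cells, 38.1 ± 19.2 in Ly6c2-only cells and 35.2 ± 17.9 in C1q-only cells.

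CD115, the receptor of the macrophage growth factor CSF1, was the antibody called lower than on both neighbours. It had a median of 298 CPM in co-expressing cells (range 159 to 730), 336 in Ly6c2-only cells (192 to 890) and 493 in C1q-only cells (227 to 1687). The log2 difference was -0.35 (SE 0.112, adjusted p = 0.0127 by edgeR) against Ly6c2-only cells and -0.41 (SE 0.118, adjusted p = 0.00733) against C1q-only cells, in 13 and 15 of 15 mice. Its transcript Csf1r was not low, with 569 ± 72.8 CPM in co-expressing cells, 444 ± 49.2 in Ly6c2-only cells and 582 ± 75.8 in C1q-only cells. Without the mouse block the first difference missed the threshold (adjusted p = 0.0709). Control antibodies without a target also differed from C1q-only cells. The hamster control, itself called, differed by -0.68 (adjusted p = 0.000849 by edgeR), rat IgG1 by -0.41 (adjusted p = 0.0665) and rat IgG2b by 0.19 (adjusted p = 0.253). Against Ly6c2-only cells these controls were not called, at 0.26, 0.08 and 0.39. The part of unspecific binding in the CD115 differences was not tested.

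CD40, CD274 (PD-L1) and CD80, proteins through which myeloid cells meet T cells, were called above both neighbours with TMM scaling, but only the difference from Ly6c2-only cells held under total scaling. CD40 differed by 0.69 (log2) from Ly6c2-only cells and by 0.48 from C1q-only cells, the second falling to 0.11 (adjusted p = 0.318) with total scaling. CD274 differed by 0.42 and 0.44, and the second fell to 0.06 (adjusted p = 0.565). CD80 differed by 0.25 and 0.26, and the second turned to -0.11 (adjusted p = 0.318). The CD80 call against Ly6c2-only cells was also lost when any 1 of 11 mice was left out, with adjusted p up to 0.191.

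For 20 antibodies the co-expressing cells were called between the neighbours with TMM scaling, and this count also depends on scaling. As shares of antibody counts, CD11b and CD44 of this group had means below both neighbours. CD11b had 212121 CPM in co-expressing cells, 280157 in Ly6c2-only cells and 233560 in C1q-only cells. CD11a, the integrin chain that binds ICAM1, was lower by 0.87 (log2) than on Ly6c2-only cells and higher by 1.03 than on C1q-only cells. F4/80, a macrophage surface receptor, was higher by 0.69 than on Ly6c2-only cells and lower by 1.01 than on C1q-only cells, and the tetraspanin CD81 was higher by 1.06 and lower by 1.47. MHC class II protein (IA/IE) had 112321 ± 31412 CPM in co-expressing cells, 46058 ± 17737 in Ly6c2-only cells and 146928 ± 29983 in C1q-only cells. With TMM scaling it differed by 1.30 (log2, adjusted p = 1.56e-07 by edgeR) from Ly6c2-only cells and by -0.04 (adjusted p = 0.761) from C1q-only cells. As a share of antibody counts it was lower than in C1q-only cells in 13 of 15 mice, so the level against C1q-only cells depended on scaling. The Ly6C antibody, given without a test, had 66553 ± 20390 CPM in co-expressing cells, 118406 ± 33691 in Ly6c2-only cells and 16180 ± 3198 in C1q-only cells.

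**Figure D3:**
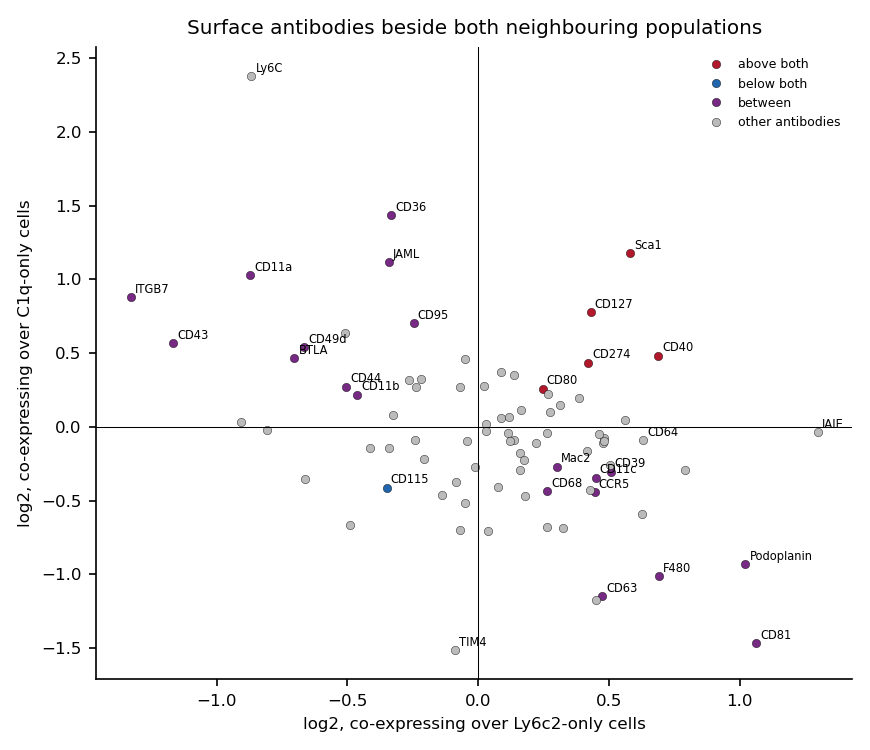
Each point is 1 surface antibody, placed by its log2 difference of co-expressing from Ly6c2-only cells (x axis) and from C1q-only cells (y axis) with TMM scaling over 15 mice, coloured by its place relative to both neighbours. Sca1, at 0.58 and 1.18, stands out in the upper right and CD115, at -0.35 and -0.41, in the lower left, while CD81 lies in the field of antibodies between the neighbours.

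The antibodies also moved across the bins of C1q share. MHC class II stood at 47198, 95999, 127293 and 134550 CPM from the lowest to the highest bin, and Sca1 at 100631, 174351, 201317 and 209591, both higher in the highest bin in 14 of 14 mice. F4/80 had 1217, 1745, 2284 and 3216 CPM and CD81 1955, 3432, 4685 and 7354. The Ly6C antibody had 71048, 75016, 57067 and 41083. Sca1 and MHC class II had thus come near their highest values by the third bin, whereas F4/80 and CD81 were still climbing in the last. These values are shares of all antibody counts in a bin. The PIR-A/B antibody alone had 284861 CPM in the lowest bin, against 32323, 26794.5 and 25479.5 in the others. In 0 of 14 mice was it higher in the highest than in the lowest bin. Its size differed between mice, at 57638 ± 110561 CPM in co-expressing cells over 15 mice, against 44187 ± 6671 in Ly6c2-only cells. Despite that higher mean, co-expressing cells were above Ly6c2-only cells in only 1 of 15 mice. The value of the lowest bin can therefore rest largely on 1 mouse. This large share lowered the values of all other antibodies in the lowest bin. Steps up from the lowest bin, the small rise of Ly6C included, were not rescaled for this.

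The share of co-expressing cells was then compared between conditions, a description of how common they were among sorted CD45-positive cells. Shares of all assigned cells were 8.08%, 12.8%, 16.7% and 12.4% in LysM-Cre mice on anti-PD-1, against 9.97%, 3.73%, 8.33% and 7.99% in floxed anti-PD-1 mice. They were 9.31%, 15.7%, 5.32% and 3.30% in LysM-Cre isotype mice, against 11.4%, 6.94%, 15.1% and 15.1% in floxed isotype mice. All 4 conditions overlapped with each other. Under anti-PD-1 the LysM-Cre mean was 4.98 percentage points above the floxed mean (exact two-sided permutation p = 0.0857, adjusted p = 0.229 over 8 comparisons), and under isotype the difference was -3.74 points (p = 0.314). With 4 mice against 4 the smallest possible p is 0.0286, and no share difference passed after adjustment.

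As a share of Ly6c2-only, C1q-only and co-expressing cells together, the values were 20.4%, 19.9%, 29.3% and 39.3% in LysM-Cre mice on anti-PD-1 and 21.4%, 7.32%, 18.2% and 14.4% in floxed anti-PD-1 mice. In isotype mice they were 27.5%, 35.97%, 14.4% and 8.00% with LysM-Cre and 29.0%, 25.4%, 38.3% and 34.3% in floxed mice. In floxed mice, every anti-PD-1 value lay below every isotype value, with means of 15.3% ± 6.07 and 31.7% ± 5.68 (SD, n = 4 each). This difference of -16.4 points reached the smallest exact permutation p the design allows (p = 0.0286, adjusted p = 0.229), and permuting within pools gave p = 0.0556, likewise the smallest possible. Within pool E5 it was -12.8 points and within pool E6 -20.0 points. The contrasts that use LysM-Cre isotype mice changed sign between pools: for the share of the 3 populations, anti-PD-1 minus isotype in LysM-Cre mice was -11.5 points in E5 and 23.1 points in E6. The median UMI count of the 3 populations' cells ran from 9663 to 13340 over floxed anti-PD-1 mice and from 8879 to 11248 over floxed isotype mice. Assigned cells numbered 161 to 943 in floxed anti-PD-1 mice and 938 to 3833 in floxed isotype mice. More cells of a mouse can give more pairs under 1 hashtag. The parts of UMI count and cell number in the difference were not tested.

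**Figure D4:**
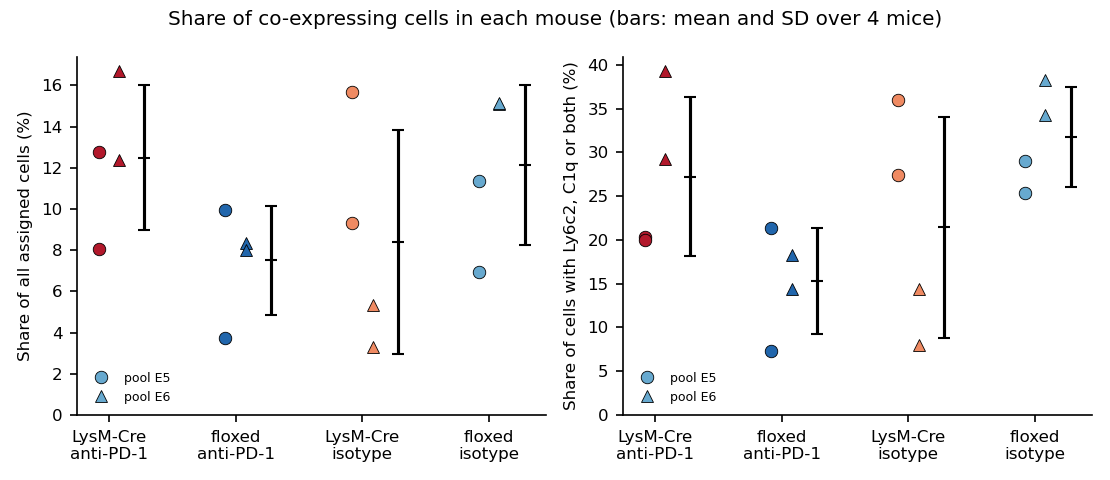
Co-expressing cells of each of the 16 mice as a percentage of all assigned cells (left) and of the 3 populations together (right), with circles for pool E5, triangles for pool E6 and bars for the mean and SD over 4 mice. The floxed anti-PD-1 mice, at 7.32% to 21.4% of the 3 populations, sit below all floxed isotype mice, at 25.4% to 38.3%; the LysM-Cre isotype mice of the pools lie apart.

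Gene levels in the co-expressing cells were compared between conditions over the mouse sums, with 8736 genes tested by edgeR's quasi-likelihood test with the pool as a covariate. In a bulk sum of cells, a change in the mix of early and late cells and a change within each cell cannot be told apart. Few genes were called. Between LysM-Cre and floxed mice under anti-PD-1, 3 of 8736 genes (0.0343%) passed an adjusted p of 0.05, and over both treatments 1 gene (0.0114%) passed. In the other comparisons no gene passed: LysM-Cre against floxed under isotype, where 174 genes had an unadjusted p under 0.05 and DESeq2 called 0, anti-PD-1 against isotype in floxed mice (660 and 25), in LysM-Cre mice (403 and 4) and over both genotypes (689 and 33), and the interaction of genotype with treatment (403 and 0).

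The targeted gene Nr3c1 had 27.6, 20.2, 29.2 and 41.8 CPM in LysM-Cre mice on anti-PD-1, against 70.1, 73.5 and 68.6 CPM in floxed anti-PD-1 mice, which did not overlap. It had 66.9, 33.2, 34.4 and 73.2 CPM in LysM-Cre isotype mice, against 61.6, 62.1, 57.7 and 62.0 CPM in floxed isotype mice, so that LysM-Cre isotype mice 1 and 4 stood above every floxed isotype mouse. The log2 difference was -1.23 under anti-PD-1 (adjusted p = 0.218), -0.27 under isotype and -0.75 over both treatments (adjusted p = 0.304), none of which edgeR called; DESeq2 called the first (adjusted p = 0.0111) and the last (adjusted p = 0.0381). The gene spans chr18:39410545-39519421, and counts made at the 3′ end need not fall in the floxed part, which the labels do not place, so these values do not read the deletion itself.

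Hspa5, which encodes BiP, the main chaperone of the endoplasmic reticulum, was lower in LysM-Cre than in floxed mice under anti-PD-1. It had 347, 411, 384 and 309 CPM in LysM-Cre mice on anti-PD-1, against 750, 857 and 668 CPM in floxed anti-PD-1 mice. The groups did not overlap, and the log2 difference was -1.09 (SE 0.175, adjusted p = 0.0450 by edgeR). It was -0.98 within pool E5, where floxed anti-PD-1 mouse 1 alone stood for its condition, and -1.14 within pool E6. Isotype mice were closer together, with 314, 364.6, 322 and 518 CPM in LysM-Cre mice and 464, 652, 397 and 411 CPM in floxed mice. Of the 4 conditions, floxed anti-PD-1 had the highest mean, at 758 CPM.

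Manf, which encodes a secreted factor of the same compartment that is made under folding stress, followed the same pattern. It had 147, 149, 128 and 113 CPM in LysM-Cre mice on anti-PD-1, against 263, 312 and 221 CPM in floxed anti-PD-1 mice, a log2 difference of -1.03 (SE 0.169, adjusted p = 0.0450 by edgeR). Under isotype it had 114, 134, 127 and 162 CPM in LysM-Cre mice and 145, 228, 141 and 144 CPM in floxed mice. Klhl5, which encodes a member of the kelch-like protein family, was higher in LysM-Cre than in floxed mice. It had 44.1, 41.4, 37.7 and 36.4 CPM in LysM-Cre mice on anti-PD-1, against 16.8, 19.0 and 22.9 CPM in floxed anti-PD-1 mice, a log2 difference of 1.06 (SE 0.176, adjusted p = 0.0450 by edgeR). Under isotype it had 32.2, 31.4, 37.2 and 35.3 CPM in LysM-Cre mice and 31.4, 35.1, 31.7 and 31.0 CPM in floxed mice, so that the floxed anti-PD-1 mice lay below all others. For both genes the groups did not overlap under anti-PD-1. The test of the difference between treatments called none of these genes (adjusted p = 0.999 for each). Hspa5 lies at chr2:34772090-34776529, Manf at chr9:106888753-106891938 and Klhl5 at chr5:65107551-65168173.

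These calls were close to the threshold. Leaving out any 1 of 13 mice raised the adjusted p of Hspa5 and Manf above 0.05, up to 0.328, and for Klhl5 leaving out any of the 15 did, while all directions held. DESeq2 called 30 genes in the comparison, among them 2 of the 3, Hspa5 and Manf. These 2 also belong to a set of 10 chaperones and folding enzymes of the endoplasmic reticulum. DESeq2 called 6 genes of that set, Hspa5 and Manf included, against 30 of all 8736 genes in the fit. That set was picked after its values were seen, so it gets no test. All 10 of its genes were lower in LysM-Cre than in floxed mice under anti-PD-1, with a median log2 difference of -0.93 and a range of -1.17 to -0.55, against a median of 0.00 over all genes. Under isotype all 10 were lower as well, with a median of -0.24 and a range of -0.45 to -0.04. Of them 0 had an unadjusted p under 0.05 (edgeR), against 1.99% of all genes, a share at which 0 of 10 is not unusual. In floxed mice all 10 were higher under anti-PD-1 than under isotype, with a median of 0.63, and in LysM-Cre mice the median was -0.05; these comparisons share the same mice. Floxed anti-PD-1 mice were also the lowest in red cell genes, whose sum was 3893 ± 4807 CPM in LysM-Cre mice on anti-PD-1, 74.1 ± 45.9 in floxed anti-PD-1 mice, 912 ± 1668 in LysM-Cre isotype mice and 4256 ± 4179 in floxed isotype mice. The part of red cell RNA in the results was not tested.

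Hspa1b, an inducible heat shock protein of the cytosol at chr17:34956429-34959238, was the gene called over both treatments. It had 51.4, 18.4, 10.8 and 8.49 CPM in LysM-Cre mice on anti-PD-1, against 139, 42.7 and 168 CPM in floxed anti-PD-1 mice. Under isotype it had 17.3, 10.5, 23.4 and 16.0 CPM in LysM-Cre mice, against 40.1, 89.1, 39.2 and 81.1 CPM in floxed mice. The genotypes overlapped under anti-PD-1 through LysM-Cre mouse 1 and did not overlap under isotype. The log2 difference over both treatments was -2.37 (SE 0.362, adjusted p = 0.0492 by edgeR), and each of the 8 LysM-Cre mice was below the floxed mean. Leaving out any 1 of 11 mice ended the call, with adjusted p up to 0.234. Hspa1b has a near-identical copy, Hspa1a, so that the split of reads between them is uncertain, and heat shock genes are also among those that respond to tissue dissociation. Of 14 dissociation genes tested, 12 were lower in LysM-Cre mice over both treatments, with a median log2 difference of -0.12, and the part of tissue handling in the result was not tested.

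**Figure D5:**
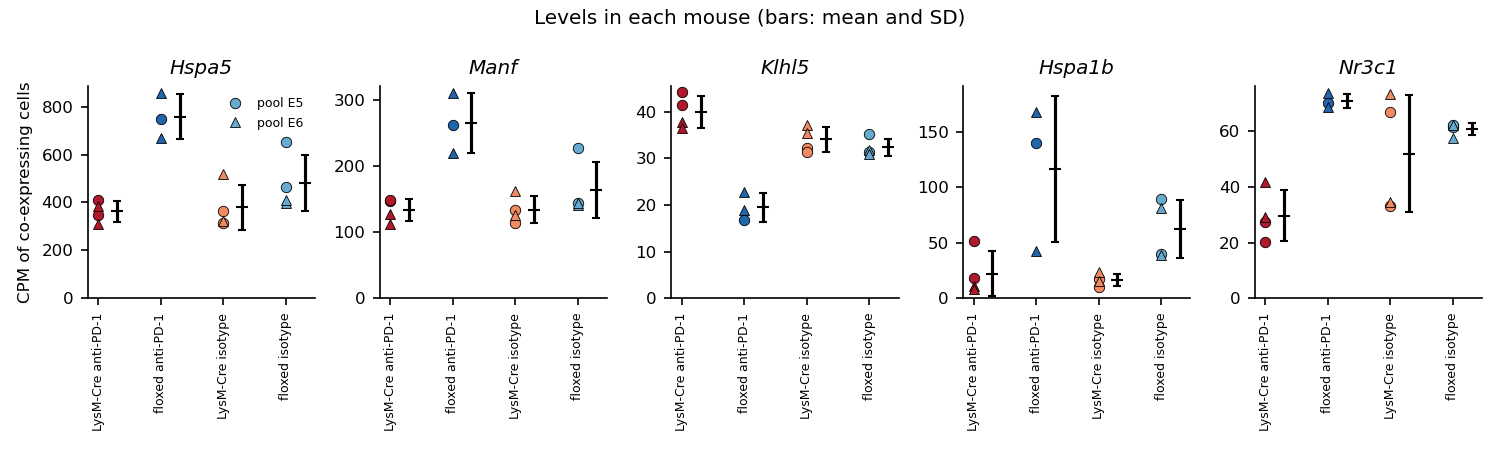
Level (CPM, y axes starting at 0) of Hspa5, Manf, Klhl5, Hspa1b and Nr3c1 in the co-expressing cells of each of 15 mice, by condition, with circles for pool E5, triangles for pool E6 and bars for the mean and SD. LysM-Cre anti-PD-1 mice lie below all floxed anti-PD-1 mice for Hspa5 (309 to 411 against 668 to 857 CPM), Manf and Nr3c1, and above them for Klhl5.

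Gene groups are described by direction, since no member other than Hspa1b passed the test. Of 18 cell cycle genes, 18 were lower in LysM-Cre than in floxed mice under anti-PD-1 (median log2 difference -1.02), and 6 of the 18 had an unadjusted p under 0.05, against 8.86% of all genes. In floxed mice all 18 were higher under anti-PD-1 than under isotype (median 0.81), and in LysM-Cre mice 6 of 18 were higher (median -0.11). Summed over the list, the level was 964 ± 164 CPM in LysM-Cre mice on anti-PD-1 (n = 4), 1306 ± 530 in floxed anti-PD-1 mice (n = 3), 1001 ± 260 in LysM-Cre isotype mice and 1049 ± 285 in floxed isotype mice (n = 4 each), so that the conditions overlapped. Hypoxia and glycolysis genes were higher under anti-PD-1 than under isotype in floxed mice for 15 of 15 genes (median 0.50). Of 26 interferon response genes, 24 were lower in LysM-Cre mice over both treatments (median -0.25), and 17 were higher under anti-PD-1 over both genotypes (median 0.22). Macrophage genes were lower under anti-PD-1 over both genotypes for 19 of 24 (median -0.31), and of 21 glucocorticoid response genes 11 were higher and 10 lower in LysM-Cre mice over both treatments (median 0.04). Of 10 MHC class II genes and 16 monocyte genes, the medians between genotypes over both treatments were -0.06 and 0.12. The median over all genes lay between -0.0066 and 0.0049 in these comparisons.

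Chil3 differed widely between mice. LysM-Cre anti-PD-1 mouse 4 had 1862 CPM, and the other mice of its condition had 400 to 482 CPM. No comparison called it.

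On the surface, the comparison of anti-PD-1 with isotype over both genotypes called 6 of 86 antibodies (6.98%), and every other comparison between conditions called none by edgeR (unadjusted p under 0.05 for 4 to 19 of 86). CD5, a T and B cell protein, had 918, 1595, 757 and 909 CPM in LysM-Cre mice on anti-PD-1 and 1439, 810 and 989 in floxed anti-PD-1 mice, against 3768, 2982, 2899 and 10959 in LysM-Cre isotype mice and 2252, 3078, 2404 and 1010 in floxed isotype mice. All anti-PD-1 mice but LysM-Cre mouse 2 and floxed mouse 1 lay below every isotype mouse, and the log2 difference was -1.44. CD4 fell by 0.90 and CD278 (ICOS), both proteins of T cells, by 0.68 on the log2 scale. The CD278 signal was low, with a mean of 111 CPM in co-expressing cells over the 15 mice. Control antibodies without a target had 159 (hamster), 182 (rat IgG1) and 33.3 CPM (rat IgG2b) there, so its fall cannot be told from a change in unspecific signal. CD80 rose by 0.54, CD11a by 0.50 and CD14, the lipopolysaccharide co-receptor of monocytes, by 0.69, and adjusted p ran from 0.0315 to 0.048 over the 6 (edgeR). Leaving out 1 of the 15 mice ended the call of CD4 in 11 cases, of CD14 in 11, of CD11a in 8, of CD278 in 7, of CD80 in 6 and of CD5 in 4, with adjusted p up to 0.133.

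The rise of CD80, CD11a and CD14 rested on the TMM scaling. With antibody totals as scaling they differed by 0.32 (adjusted p = 0.273), 0.28 (adjusted p = 0.273) and 0.45 (adjusted p = 0.260). As shares of antibody counts, LysM-Cre means were nearly level between anti-PD-1 and isotype, at 7787 and 7896 CPM for CD80, 25036 and 24207 for CD11a, and 38312 and 36562 for CD14. In floxed mice the means were 10922 and 6916, 33366 and 23009, and 49635 and 28154 CPM in the same order. Floxed isotype mouse 1 had the lowest value of the 15 mice for each, at 4581, 14732 and 14187 CPM, which lowers the floxed isotype means. The other floxed isotype mice had at least 7393, 24382 and 24527 CPM. Floxed isotype mouse 1 was also lowest for CD40, MHC class II and Ly6C, at 2527, 74694 and 45568 CPM. It was not lowest for CD4, CD5, CD64, CD81, CD169, CD274, CD278, CX3CR1 or CCR2. Its low values were thus not particular to CD80, CD11a and CD14. A large share of 1 antibody lowers the shares of all others, and the part of this was not tested. The test of the difference between genotypes called no antibody. Over both genotypes CD80 had a mean of 9130 ± 1969 CPM in anti-PD-1 mice (n = 7) and 7406 ± 1637 in isotype mice (n = 8), with overlap. With a hashtag share of 90% none of the 6 was called. T cell genes other than Cd3e and Cd3d, which are at 0 by the rule, summed to 9.86 ± 3.04 CPM in LysM-Cre mice on anti-PD-1 and 11.7 ± 1.02 in floxed anti-PD-1 mice, against 24.3 ± 11.8 in LysM-Cre isotype mice and 16.4 ± 4.35 in floxed isotype mice. They thus moved in the direction of CD5, CD4 and CD278, and the part of T cells in those values was not tested.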

How the data were processed

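CITE-seq libraries of CD45-positive cells from 16 tumours, in 2 pools of 8 hashtagged mice, were used. The authors deposited unnormalized counts of unique molecular identifiers for 32285 genes, 8 hashtags and 88 surface antibodies per barcode (89 antibodies are stated in the labels' protocols). Cell Ranger 6.1.2 wrote the matrices, per the file headers; Cell Ranger 3.0.1 and mm10 are named in the submitters' processing notes.

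Barcodes with at least 500 gene UMIs, at most 10% mitochondrial UMIs and a top hashtag of at least 10 counts and 70% of hashtag counts were kept, and barcodes with 2 hashtags were left out as doublets. Gene coordinates are from RefSeq (GRCm38.p6). Counts were summed per mouse, over mice with at least 10 cells, and tested with edgeR 4.0.16 (quasi-likelihood, TMM, filterByExpr, Benjamini-Hochberg at 0.05) with the pool as a covariate, or with the mouse as a block between populations, since these come from the same mice. DESeq2 1.42.0 was an alternative. A mouse carries no number in the labels that pairs it with a mouse of another condition. Labels do not say how far mice shared cages or litters. Two-sided exact permutation tests compared shares (scipy 1.17.1), adjusted over 8. Exact binomial intervals cover counting error only. The fits were tested on simulated data. A gene and an antibody counted in the totals are not reported here. The depth of each mouse's sum, 101224 to 8546431 gene UMIs, sets its precision.

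The members, gene lists and tests were chosen with earlier results of these data known. Genes named between populations were those above both, below both or between the neighbours in at least 12 of 15 mice; genes named between conditions were those past the adjusted p with at least 10 CPM, beside Nr3c1, the markers and listed genes of high level.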

Additional observations from a re-analysis of the deposited data

Results flagged for a closer look

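Of 65 groups of 4 mice checked, 9 held a mouse far from the others of its condition, where about 1 in 20 would by chance. In the co-expressing cells, Hspa1a was 80.8 CPM in LysM-Cre anti-PD-1 mouse 1 (22.4 to 30.8 in the others) and Chil3 was 1862 CPM in LysM-Cre anti-PD-1 mouse 4 (400 to 482). Lyz1, which has the near-identical copy Lyz2, was 321 CPM in LysM-Cre isotype mouse 1 (5.89 to 43.3), and Cx3cr1 was 575 CPM in LysM-Cre isotype mouse 4 (176 to 239). The CD5 antibody was 10959 antibody CPM in LysM-Cre isotype mouse 4 (2899 to 3768), and the CD14 antibody was 26259 antibody CPM in LysM-Cre isotype mouse 2 (38965 to 40553). Among floxed isotype mice, Manf was 228 CPM in mouse 2 (141 to 145), Nr3c1 was 57.7 CPM in mouse 3 (61.6 to 62.1) and the CD278 antibody was 63.6 antibody CPM in mouse 1 (120 to 128). Antibody values are shares of antibody counts, and floxed isotype mouse 1 was low in the shares of several other antibodies as well. No cause was tested.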

How the results depend on the processing

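Scrublet's own threshold called no barcode in either pool, so leaving out its doublets gives no value; leaving out scores above the median of 2-hashtag barcodes, a minimum of 5 cells per mouse and antibody totals as scaling were added after seeing the data. The comparisons of shares that use LysM-Cre isotype mice turned between pools. LysM-Cre minus floxed under isotype was 3.34 points in E5 and -10.8 in E6 of all assigned cells, and 4.51 and -25.1 of the 3 populations. Anti-PD-1 minus isotype in LysM-Cre mice was -2.06 points in E5 and 10.2 in E6 of all cells, and -11.5 and 23.1 of the 3 populations. All other share differences kept their direction and none passed adjustment in any setting, with 3 mice of a condition where 1 was left out.

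Counts of called genes in the co-expressing cells moved most without a filter on low counts. They were then 54 for LysM-Cre against floxed under isotype, 183 under anti-PD-1 and 165 over both treatments, 148 for anti-PD-1 against isotype in floxed mice, 163 in LysM-Cre mice and 216 over both genotypes, and 57 for the interaction, against 0, 3, 1, 0, 0, 0 and 0. DESeq2 called 30 (LysM-Cre against floxed, anti-PD-1), 14 (both treatments), 25 (anti-PD-1 against isotype, floxed), 4 (LysM-Cre) and 33 (both genotypes). A stricter rule of co-expression gave 5, 4, 5, 3 and 11 in the same order. Leaving out high doublet scores gave 1 for LysM-Cre against floxed under anti-PD-1, 2 over both treatments and 6 for anti-PD-1 over both genotypes, which also had 6 with no pool covariate. A hashtag share of 90% gave 3 for anti-PD-1 in floxed mice and 0 for LysM-Cre over both treatments, and a minimum of 5 cells gave 0 for the last. The cause was not tested in any of these.

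Leaving out 1 mouse at a time gave 0 to 3 called genes for LysM-Cre against floxed under anti-PD-1 and over both treatments, 0 to 3 for anti-PD-1 in floxed mice, 0 to 1 in LysM-Cre mice and 0 to 20 over both genotypes (20 without LysM-Cre isotype mouse 2). For antibodies it gave 0 to 1 for anti-PD-1 in floxed mice, 0 to 1 in LysM-Cre mice and 0 to 15 over both genotypes, and 36 to 44 and 36 to 46 beside Ly6c2-only and C1q-only cells. Over 24 settings, Hspa5 kept its call in 11, Manf in 9 and Hspa1b in 11, and Klhl5 in 5 of 23, all with the same direction.

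Antibodies called for anti-PD-1 against isotype numbered 1 in floxed mice with a minimum of 5 cells. In LysM-Cre mice they numbered 2 with stricter co-expression and 1 each without high doublet scores, with a minimum of 5 cells and with totals as scaling. Over both genotypes they numbered 0 with a hashtag share of 90% and 10 with a minimum of 5 cells. Between populations, the fit without the replicate block for the mouse called 26 antibodies against Ly6c2-only cells and 31 against C1q-only cells. CD80 against C1q-only cells reversed to -0.11 with totals as scaling. No paired analysis was possible between conditions because a mouse belongs to 1 condition and the labels pair no mice. Genes with few UMIs in the mice with 41 to 58 cells limit what these sums can show.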
